A study of Mus musculus with 20 samples.

Results

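A list of 10 genes that reactive astrocytes are known to raise was followed across 20 bulk RNA sequencing libraries: Gfap, Vim, Serpina3n, Lcn2, Cd44, Osmr, Stat3, S1pr3, A2m and Cd109. They were taken by name from a list drawn up with earlier results of these data known, and all 10 were found once each among the 46078 genes of the count tables. The libraries came from wild type male C57BL/6J mice aged 18 months, killed 7 weeks after DH stroke, in which the distal middle cerebral artery is occluded and the animal is then made hypoxic. All mice had the stroke. From 1 week after it they were injected under the skin 3 times per week for 6 weeks, with sterile PBS (vehicle) or with 4 g/kg HPBCD (hydroxypropyl-β-cyclodextrin, a ring of sugars that can hold cholesterol). Each treatment was represented by 5 peri-infarct libraries, from tissue dissected around the infarct after the infarct itself had been taken out, and by 5 libraries of the matching contralateral tissue. Nothing in the tables measures the treatment itself, so the treatment groups are the libraries labelled vehicle and HPBCD.

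Astrocytes respond to injury by a graded change called reactivity, in which they enlarge, raise intermediate filaments and secrete inhibitors of proteases and acute phase proteins. Near an infarct, reactive astrocytes form a border around the lesion. Cytokines of the interleukin 6 family drive much of this response: they bind receptors that contain gp130, such as the oncostatin M receptor Osmr, and lead to the activation of the transcription factor STAT3. Several of the 10 genes are also made by other cells of an injured brain. Vim is used by endothelium, fibroblasts and microglia, Cd44 by many leukocytes, and Lcn2 by neutrophils.

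Single libraries held 14445021 to 22171627 gene counts (median 19008532), at which 3 counts correspond to 0.135 to 0.208 CPM (counts scaled to a common library total with TMM factors). Levels are CPM unless a sentence says otherwise. The HPBCD contralateral replicate 4 stood apart from the other libraries. It was the shallowest, and 9.5% of its read pairs had no feature and 8.03% were ambiguous, against 4.39% to 5.86% and 3.94% to 4.16% in the other 19. Ribosomal RNA made up 5.36% of its gene counts, against 0.787% to 1.97% in the others. Without it the log2 fold changes of the 10 genes between regions in HPBCD were 1.34 to 7.22 and moved by at most 0.13, and all 10 were called. Astrocytes were present in all libraries: the summed CPM of 12 markers that astrocytes carry in any state, among them Aldh1l1, Aqp4 and Slc1a2, was 7333 to 10787.

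The 250 bases before the start site were read for the members in the RefSeq promoter table (build GRCm38.p6), which holds 8 of the 10: Gfap, Vim, Serpina3n, Lcn2, Cd44, Osmr, Stat3 and S1pr3. They were searched on both strands for letters that the factors downstream of these cytokines are known to bind. The STAT motif TTCNNNGAA was in 0 of the 8 windows, against 7.02% of all 32851 promoters of this length. The AP-1 motif TGANTCA was in 0 of the 8, against 6.75%, and the C/EBP motif TTGCNNAA was in 1 of the 8, against 9.56%. That match was in Lcn2 and starts 216 bases before the start site. Its bases are shown in capitals below within 24 bases of the minus strand at chr2:32387940-32387963. The windows of Gfap (minus strand, chr11:102897201-102897450) and Serpina3n (plus strand, chr12:104406458-104406707), the members with the highest levels per length beside the infarct, are shown whole. They are in lower case throughout, since none of the 3 motifs was found in them. A match is a run of letters and not a measured site, and the windows do not cover more distant elements.
Lcn2: ccttcctgTTGCTCAAccttgcac
Gfap: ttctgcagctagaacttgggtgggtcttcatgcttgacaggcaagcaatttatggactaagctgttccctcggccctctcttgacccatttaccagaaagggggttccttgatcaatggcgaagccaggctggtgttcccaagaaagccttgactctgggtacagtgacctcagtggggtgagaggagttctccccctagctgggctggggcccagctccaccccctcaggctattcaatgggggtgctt
Serpina3n: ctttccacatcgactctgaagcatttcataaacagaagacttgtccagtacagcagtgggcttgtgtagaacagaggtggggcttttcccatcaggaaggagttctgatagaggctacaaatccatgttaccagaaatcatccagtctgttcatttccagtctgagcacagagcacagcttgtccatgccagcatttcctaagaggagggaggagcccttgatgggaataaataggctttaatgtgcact

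Among the members, Gfap was the most abundant transcript per kilobase of exon in all 4 groups. In the vehicle contralateral libraries its mean level was 53.3 ± 13.3 CPM per kilobase (SD, n = 5), followed by Vim at 7.63 ± 2.08, Serpina3n at 4.66 ± 0.71, Stat3 at 4.22 ± 0.249 and S1pr3 at 1.52 ± 0.273. The ranges of Serpina3n (3.92 to 5.77 CPM per kilobase) and Stat3 (3.87 to 4.48) overlapped, so their order was within the spread. Cd44 (0.384 ± 0.102), Osmr (0.338 ± 0.0754), Cd109 (0.146 ± 0.106), Lcn2 (0.117 ± 0.13) and A2m (0.0781 ± 0.0555 CPM per kilobase) made up the low end, where each overlapped its neighbour. The order was different beside the infarct. In the HPBCD peri-infarct libraries Gfap (813 ± 205 CPM per kilobase) was followed by Serpina3n (156 ± 57.9) and Vim (140 ± 44), which overlapped, and then by A2m at 14.9 ± 5.86 CPM per kilobase. The range of A2m, 9.06 to 24.7 CPM per kilobase, overlapped those of Lcn2 (2.74 to 24.4) and Stat3 (8.46 to 13.9). In vehicle peri-infarct tissue A2m (6.59 ± 5.26 CPM per kilobase) came after Gfap (396 ± 202), Serpina3n (78.6 ± 55.5), Vim (56.3 ± 27.9), Lcn2 (8.73 ± 9.88) and Stat3 (7.31 ± 1.35), and overlapped Lcn2 and Stat3. In HPBCD contralateral tissue the lowest mean was that of Cd109 (0.0548 ± 0.0363), followed by A2m (0.104 ± 0.0812 CPM per kilobase), which overlapped.

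Peri-infarct tissue was first compared with contralateral tissue in the mice given vehicle, to see how the stroke had left these genes at 7 weeks. All 10 were higher beside the infarct, at an adjusted p-value under 0.05 in edgeR's quasi-likelihood test, against 10.5% of the 15801 genes tested. For all 10 the lowest of 5 peri-infarct libraries lay above the highest of 5 contralateral libraries, which held for 6.72% of the genes tested. The median log2 fold change of the 10 was 2.91 (0.78 to 6.40), and that of all genes was 0.01. In the HPBCD mice all 10 were again higher beside the infarct, against 30.3% of 16047 genes, and none overlapped, against 24.3%. The median log2 fold change there was 4.71 (1.31 to 7.23), and 0.03 over all genes. Since fewer cells of a type and less RNA per cell cannot be told apart in bulk tissue, a level here is that of the tissue and not of an astrocyte. The summed astrocyte markers of all states were much less apart than the members, with medians of 8257 CPM (7509 to 10787) in vehicle peri-infarct and 7634 CPM (7333 to 8766) in vehicle contralateral libraries. Much of that sum came from Slc1a2 and Glul, with means of 2950 and 2090 CPM in vehicle peri-infarct libraries. Of the 12 markers, 5 were called higher in vehicle and 7 were not called. Aqp4 went from 105 to 309 CPM (log2 1.55, adjusted p = 0.00286), while Fgfr3 gave -0.04 (adjusted p = 0.851). The sum alone thus does not measure how many astrocytes the tissue held.

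**Figure D1:**
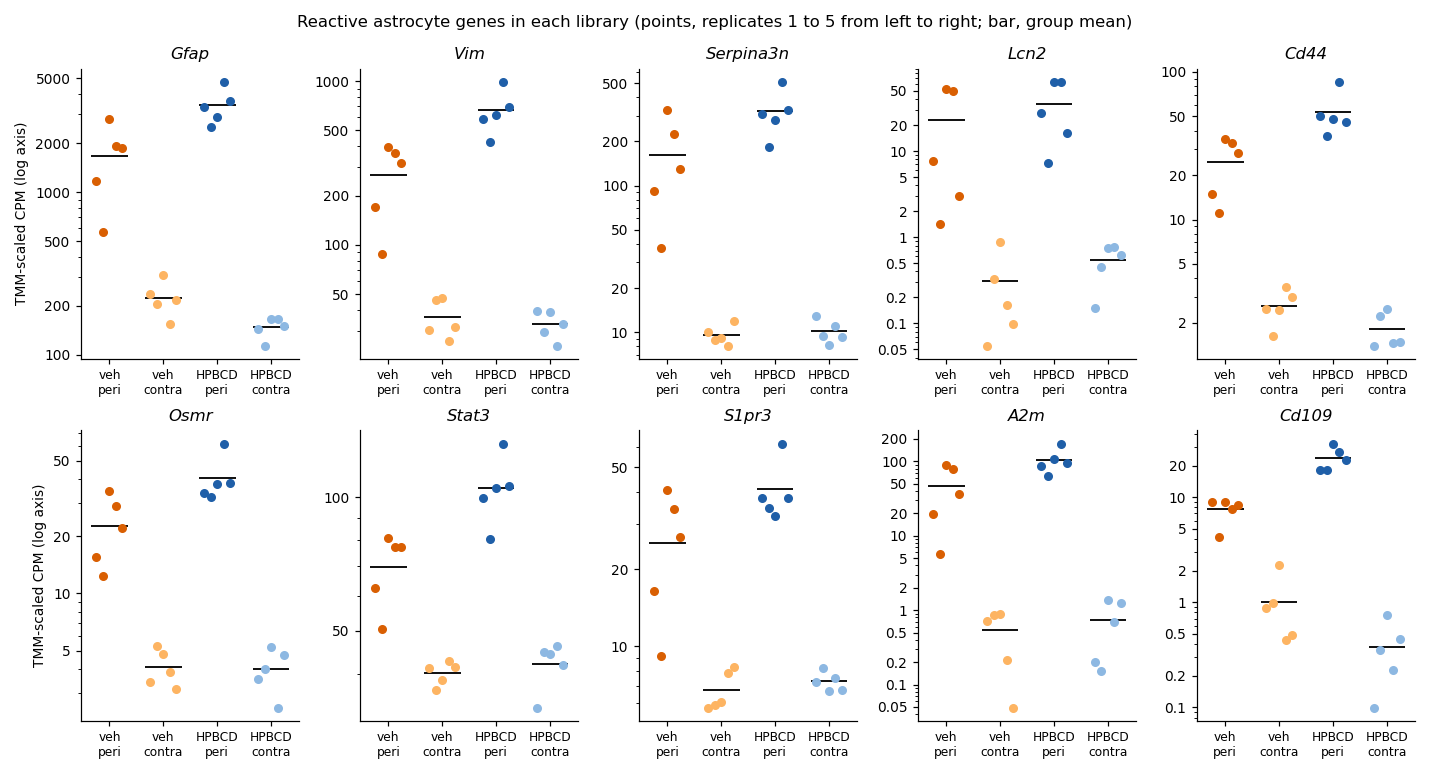
TMM-scaled CPM (log axis) of the 10 genes in each of the 20 libraries, by group, with points for replicates 1 to 5 and a bar for the group mean. In each panel all 10 peri-infarct points lie above all 10 contralateral points, from Stat3, at 50.4 to 132 CPM against 33.6 to 46.2 CPM, to A2m, at 5.69 to 173 CPM against 0.0492 to 1.38 CPM.

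The members that build the cytoskeleton are Gfap and Vim, which encode the intermediate filament proteins GFAP and vimentin. Gfap (ENSMUSG00000020932) lies at chr11:102887336-102900912 of GRCm38. Its level in vehicle peri-infarct replicates 1 to 5 was 1170, 570, 2826, 1913 and 1868 CPM, against 238, 206, 309, 154 and 218 CPM in the contralateral libraries. In the HPBCD mice it was 3336, 2494, 2904, 4763 and 3650 CPM beside the infarct and 144, 114, 165, 167 and 151 CPM opposite. Every peri-infarct library was above every contralateral one, and replicate 2 was the lowest beside the infarct in each treatment. The log2 fold change between regions was 2.88 (SE 0.36, adjusted p = 0.00146) in vehicle and 4.53 (SE 0.19, adjusted p = 3.56e-08) in HPBCD.

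Vim (ENSMUSG00000026728, chr2:13573927-13582826) had 170, 88, 397, 363 and 317 CPM in vehicle peri-infarct and 30.1, 46, 47.5, 25.9 and 31.4 CPM in vehicle contralateral libraries. The HPBCD libraries had 586, 424, 617, 991 and 695 CPM beside the infarct and 39.6, 29.5, 39.1, 24.3 and 32.8 CPM opposite. The 2 contralateral groups covered nearly the same range, and the lowest HPBCD peri-infarct library was above the highest of vehicle. Vim rose 7.31-fold between regions in vehicle (log2 2.87, SE 0.37, adjusted p = 0.00146) and 20-fold in HPBCD (log2 4.32, SE 0.23, adjusted p = 1.23e-07). Other intermediate filament genes did not share this size of change. Nestin (Nes) had a log2 fold change between regions of -0.03 in vehicle (adjusted p = 0.924) and rose by 0.88 in HPBCD (adjusted p = 7.64e-05). Synemin (Synm) gave 0.11 (adjusted p = 0.537) and 0.59 (adjusted p = 0.000877), and the muscle filament gene Des gave 0.06 and 0.16 (adjusted p = 0.918 and 0.652). The neuronal filament gene Ina fell by 0.64 in vehicle (adjusted p = 0.00768) and by 1.39 in HPBCD (adjusted p = 1.88e-05).

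Serpina3n, Lcn2 and A2m encode secreted proteins. Serpina3n is a serine protease inhibitor and lies at chr12:104406729-104414329 (ENSMUSG00000021091). It had 92.3, 37.4, 327, 224 and 130 CPM in vehicle peri-infarct libraries and 10.1, 8.88, 9.12, 8.1 and 11.9 CPM in the contralateral ones. With HPBCD it had 309, 183, 280, 511 and 328 CPM beside the infarct and 12.9, 9.48, 8.14, 11 and 9.25 CPM opposite. The 10 contralateral libraries thus stayed within 8.1 to 12.9 CPM, while the vehicle peri-infarct libraries were 8.75-fold apart from lowest to highest. The log2 fold change was 4.06 in vehicle (SE 0.49, adjusted p = 0.00146) and 4.98 in HPBCD (SE 0.25, adjusted p = 1.09e-07). Serpina3n belongs to a cluster of near copies, whose reads could be split in counting. The other 13 measured Serpina3 genes and pseudogenes had at most 114 counts each over all 20 libraries, in Serpina3i, against 50413 for Serpina3n. These counts do not show how many shared reads were set aside.

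Lcn2 encodes lipocalin 2, which binds bacterial iron carriers, and lies at chr2:32384633-32388252 (ENSMUSG00000026822). It was the most variable member beside the infarct. Vehicle peri-infarct libraries had 7.75, 1.44, 52.3, 50 and 2.97 CPM, from 28 to 1061 counts, and vehicle contralateral libraries 0.055, 0.327, 0.889, 0.163 and 0.0984 CPM, from 1 to 15 counts. HPBCD libraries had 27.6, 7.2, 63.9, 63.3 and 16.2 CPM beside the infarct and 0.15, 0.454, 0.758, 0.761 and 0.62 CPM opposite. Replicates 3 and 4 were the high libraries of each peri-infarct group, and the vehicle peri-infarct group was 36.4-fold wide. Between regions the change was 6.24 in vehicle on the log2 scale (SE 1.18, adjusted p = 0.00564) and 6.06 in HPBCD (SE 0.67, adjusted p = 1.03e-05). With limma voom and sample quality weights the vehicle call was lost (adjusted p = 0.0867). The 10 neutrophil markers summed to 0.204 to 6.36 CPM in vehicle peri-infarct and 1.93 to 38.9 CPM in HPBCD peri-infarct libraries, and the neutrophil gene Ly6g had 3 counts or fewer in every library. In replicates 1 to 5 the sum was 0.204, 2.26, 2.32, 6.36 and 1.15 CPM in vehicle and 1.93, 17.3, 7.17, 38.9 and 2.01 CPM in HPBCD peri-infarct tissue. Replicate 4, a high library for Lcn2 in each group, thus had the highest neutrophil sum of its group, and in HPBCD replicate 2, the lowest for Lcn2, had the next highest. The part of neutrophils in the Lcn2 values was not tested.

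A2m encodes alpha-2-macroglobulin, which traps proteases of all classes, and lies at chr6:121635376-121679227 (ENSMUSG00000030111). Its vehicle peri-infarct levels were 19.6, 5.69, 90.2, 79.3 and 36.6 CPM against 0.715, 0.872, 0.889, 0.217 and 0.0492 CPM in contralateral tissue. Its HPBCD levels were 87.5, 63.6, 106, 173 and 94.4 CPM beside the infarct and 0.2, 0.151, 1.38, 0.685 and 1.24 CPM opposite. The contralateral values rest on 1 to 22 counts. A2m rose between regions by 6.40 on the log2 scale in vehicle (SE 0.83, adjusted p = 0.00147), close to Lcn2 within the errors, and by 7.23 in HPBCD (SE 0.43, adjusted p = 2.95e-07). Of its measured relatives other than Cd109, none was called higher between regions. A2ml1 fell by 1.64 on the log2 scale in HPBCD (adjusted p = 2.69e-05) and had -0.49 in vehicle (adjusted p = 0.119), Pzp had 84 counts over all libraries, and Mug1 and Mug2 had none, a total of 0 counts each.

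Cd44, Osmr, S1pr3 and Cd109 encode proteins of the cell surface. Cd44 is a receptor of hyaluronan and osteopontin (ENSMUSG00000005087, chr2:102811141-102901665). It had 15, 11.1, 35.2, 33.1 and 28.4 CPM in vehicle peri-infarct, and 2.47, 1.63, 2.43, 3.48 and 3 CPM in vehicle contralateral libraries. With HPBCD it had 50.2, 37.1, 48.1, 85.8 and 45.8 CPM beside the infarct and 1.4, 2.22, 2.48, 1.45 and 1.47 CPM opposite. Every HPBCD peri-infarct library was above every vehicle one, and replicate 4 was the highest. Cd44 rose between regions 9.31-fold in vehicle (log2 3.22, SE 0.34, adjusted p = 0.00115) and 29.5-fold in HPBCD (log2 4.88, SE 0.26, adjusted p = 1.23e-07).

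Osmr (ENSMUSG00000022146, chr15:6813577-6874969) encodes the chain that pairs with gp130 to bind oncostatin M. It had 15.5, 12.3, 34.6, 28.8 and 22.1 CPM in vehicle peri-infarct and 3.41, 5.28, 4.8, 3.86 and 3.15 CPM in vehicle contralateral libraries. The HPBCD libraries had 33.9, 32.2, 37.7, 61.5 and 38.2 CPM beside the infarct and 3.54, 3.98, 5.24, 2.51 and 4.74 CPM opposite. The contralateral groups overlapped almost wholly, and 3 of 5 HPBCD peri-infarct libraries were above all of vehicle. The log2 fold change between regions was 2.45 in vehicle (SE 0.28, adjusted p = 0.00128) and 3.34 in HPBCD (SE 0.22, adjusted p = 4.92e-07).

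S1pr3 (ENSMUSG00000067586, chr13:51408639-51422797) encodes a G protein-coupled receptor of the lipid sphingosine 1-phosphate. Its vehicle levels were 16.4, 9.18, 40.6, 34.4 and 26.6 CPM beside the infarct and 5.77, 5.88, 6.04, 7.88 and 8.32 CPM opposite. Its HPBCD levels were 38, 34.8, 32.4, 61.8 and 37.8 CPM and 7.24, 8.22, 6.69, 7.53 and 6.77 CPM. The lowest vehicle peri-infarct library, replicate 2, was only just above the highest contralateral one. Between regions the log2 fold change was 1.89 in vehicle (SE 0.34, adjusted p = 0.00442) and 2.49 in HPBCD (SE 0.17, adjusted p = 5.31e-07). An antisense lincRNA, Gm32834, overlaps 45 bases of its exons, and the strand setting of the counting is not stated.

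Cd109 (ENSMUSG00000046186, chr9:78615546-78716253) encodes a GPI-anchored protein of the alpha-2-macroglobulin family that binds TGF-beta and acts as a co-receptor. It had 9.08, 4.2, 9.09, 7.73 and 8.47 CPM in vehicle peri-infarct and 0.879, 0.981, 2.25, 0.435 and 0.492 CPM in vehicle contralateral libraries. In the HPBCD mice it had 18, 18.2, 32.3, 26.8 and 22.8 CPM beside the infarct, and 0.0998, 0.353, 0.758, 0.228 and 0.451 CPM opposite, from 2 to 11 counts. The lowest HPBCD peri-infarct library had 18 CPM and the highest vehicle library 9.09 CPM, and 4 of 5 vehicle libraries were within 7.73 to 9.09 CPM. The log2 fold change between regions was 2.93 in vehicle (SE 0.4, adjusted p = 0.00174) and 5.98 in HPBCD (SE 0.32, adjusted p = 1.24e-07).

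Stat3 (ENSMUSG00000004040, chr11:100885098-100939540), the transcription factor, showed the smallest fold changes of the 10. It had 62.5, 50.4, 80.8, 77.4 and 77.1 CPM in vehicle peri-infarct and 41.3, 36.8, 38.8, 42.7 and 41.5 CPM in vehicle contralateral libraries. With HPBCD it had 99.8, 80.6, 105, 132 and 106 CPM and 33.6, 44.7, 44.3, 46.2 and 41.9 CPM. The libraries of a group were closer to each other than for any other member in vehicle peri-infarct tissue, 1.6-fold from lowest to highest, and the regions did not overlap. Its log2 fold change was 0.78 in vehicle (SE 0.12, adjusted p = 0.0024) and 1.31 in HPBCD (SE 0.12, adjusted p = 2.94e-06). The last exon of Stat3 runs over 72 bases of Stat5a on the opposite strand, and Stat5a had 1527 counts in all libraries together. RNA level does not show whether the STAT3 protein was phosphorylated.

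The libraries of both regions were also set against each other animal by animal. All 10 genes were higher beside the infarct in 5 of 5 vehicle animals and in 5 of 5 HPBCD animals. For Gfap the ratio was 2.76 to 12.4 (median 8.59) in vehicle and 17.6 to 28.5 (median 23.2) in HPBCD animals. For Vim it was 1.91 to 14 (median 8.34) and 14.4 to 40.7 (median 15.8), and for Cd44 6.08 to 14.5 (median 9.47) and 16.7 to 59.3 (median 31.2). The vehicle and HPBCD animals did not overlap for these 3 genes, by a narrow margin for Vim. The share of all genes that were higher in every animal, or whose animals did not overlap, was not counted. They overlapped for Serpina3n, at 4.21 to 35.9 and 19.3 to 46.3, for Osmr, at 2.32 to 7.46 and 7.2 to 24.5, for S1pr3, at 1.56 to 6.72 and 4.24 to 8.2, and for Stat3, at 1.37 to 2.08 and 1.8 to 2.97. The highest HPBCD ratios of Gfap, Vim, Cd44, Serpina3n, Osmr and S1pr3 were those of animal 4, which had the highest HPBCD peri-infarct level of each and the contralateral library that stood apart. Without animal 4 the highest was 24.1 for Gfap, 21.2 for Vim, 35.9 for Cd44, 35.4 for Serpina3n, 9.57 for Osmr and 5.59 for S1pr3. Of the 100 ratios, 8 had 3 or fewer contralateral counts, all in Lcn2, A2m or Cd109, and are not given as values.

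**Figure D2:**
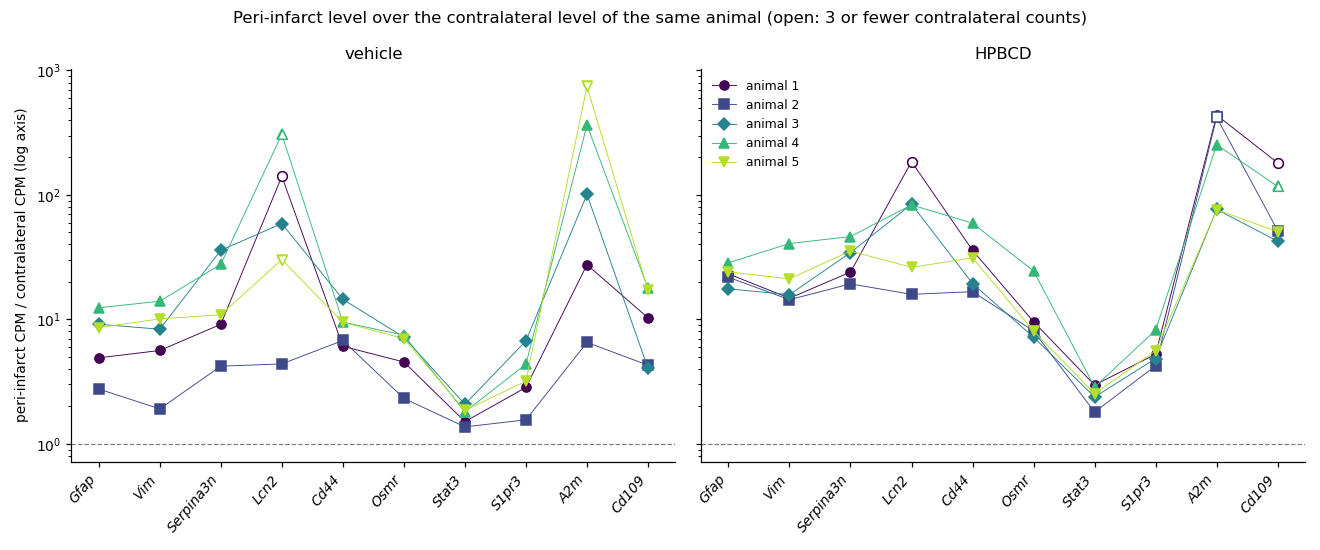
Peri-infarct CPM divided by the contralateral CPM of the same animal (log axis), for the 10 genes in 5 vehicle and 5 HPBCD animals, with open symbols for the 8 ratios with 3 or fewer contralateral counts. All points lie above 1, and animal 2 is the lowest vehicle animal for Gfap, at 2.76, and for Vim, at 1.91.

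The libraries labelled HPBCD were then compared with those labelled vehicle in peri-infarct tissue, the question for which the mice were treated. The direction of each such difference rests on the labels alone. Whether the labels name both treatments the right way round is in doubt and could not be settled from these counts, so higher and lower below hold for the libraries as labelled. All 10 fitted log2 fold changes were above 0 (0.58 to 1.61, median 1.01, against 0.01 for all genes), and 5 of the 10 genes passed the threshold, against 12.4% of 16224 genes called higher. Cd109 rose 3.05-fold (log2 1.61, SE 0.22, adjusted p = 0.0127), Vim 2.47-fold (log2 1.30, SE 0.36, adjusted p = 0.0309) and Cd44 2.16-fold (log2 1.11, SE 0.32, adjusted p = 0.0334). The HPBCD and vehicle libraries of these 3 genes did not overlap, as was the case for 7.46% of genes tested. Osmr rose 1.79-fold (log2 0.84, SE 0.27, adjusted p = 0.0475) and Stat3 1.5-fold (log2 0.58, SE 0.15, adjusted p = 0.0235), with overlapping libraries.

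The other 5 genes did not pass. Gfap had a mean of 3429 ± 864 CPM with HPBCD and 1669 ± 850 CPM with vehicle (SD, n = 5 each), and 4 of 5 HPBCD libraries were above all of vehicle. Its log2 fold change was 1.03, with a 95% interval of 0.27 to 1.80 and an adjusted p of 0.0552. A2m had 105 ± 41.1 and 46.3 ± 37 CPM (log2 1.17, interval -0.07 to 2.42, adjusted p = 0.148). Serpina3n had 322 ± 120 and 162 ± 115 CPM (log2 0.98, interval -0.05 to 2.01, adjusted p = 0.144). S1pr3 had 41 ± 11.9 and 25.4 ± 12.8 CPM (log2 0.68, interval -0.06 to 1.42, adjusted p = 0.155). For Lcn2, at 35.6 ± 26.5 and 22.9 ± 25.9 CPM, the interval was the widest, -1.30 to 2.57 (adjusted p = 0.621). The ratio of the highest to the lowest library was larger with vehicle than with HPBCD for all 10 genes but Stat3, for example 4.96-fold against 1.91-fold for Gfap and 15.8-fold against 2.72-fold for A2m. For Stat3 the ratios were 1.6-fold and 1.64-fold. The SD in CPM was larger with HPBCD for all but S1pr3.

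The number of members called rested on single libraries. It was 1 when vehicle peri-infarct replicate 1 was left out, and also 1 when HPBCD peri-infarct replicate 3 was. It was 2 without HPBCD replicate 4 or 5, 3 without vehicle replicate 2 or 5, 4 without vehicle replicate 4, 5 without HPBCD replicate 1, 6 without HPBCD replicate 2 and 7 without vehicle replicate 3. The count over all genes moved as well, from 3471 to 1437 without vehicle replicate 1, 823 without HPBCD replicate 3 and 4687 without vehicle replicate 3. Cd109 kept its call without each of the 10 libraries in turn and Stat3 without 8 of them. DESeq2 called 6 of the 10 genes and limma voom 8.

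**Figure D3:**
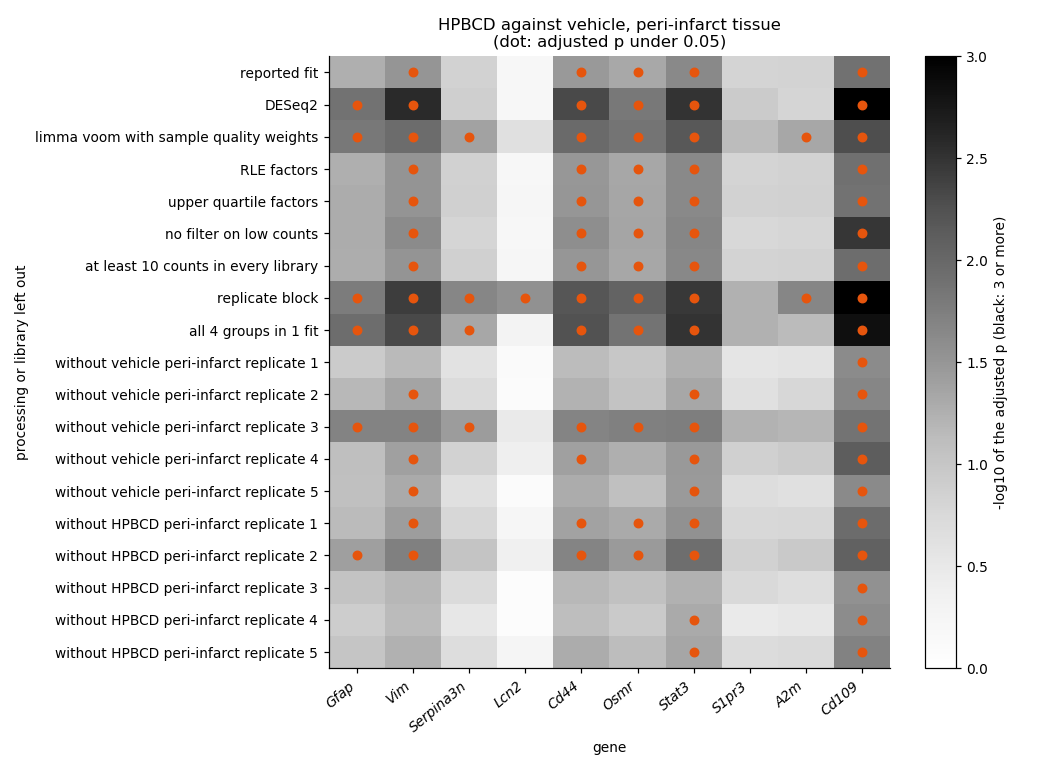
Size of -log10 of the adjusted p-value (grey scale) of the 10 genes for HPBCD against vehicle in peri-infarct tissue, under the reported fit, 8 other settings and 10 fits that each leave out 1 library, with a dot where the adjusted p is under 0.05. The Cd109 column has a dot in each line and the S1pr3 column has none.

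**Figure D4:**
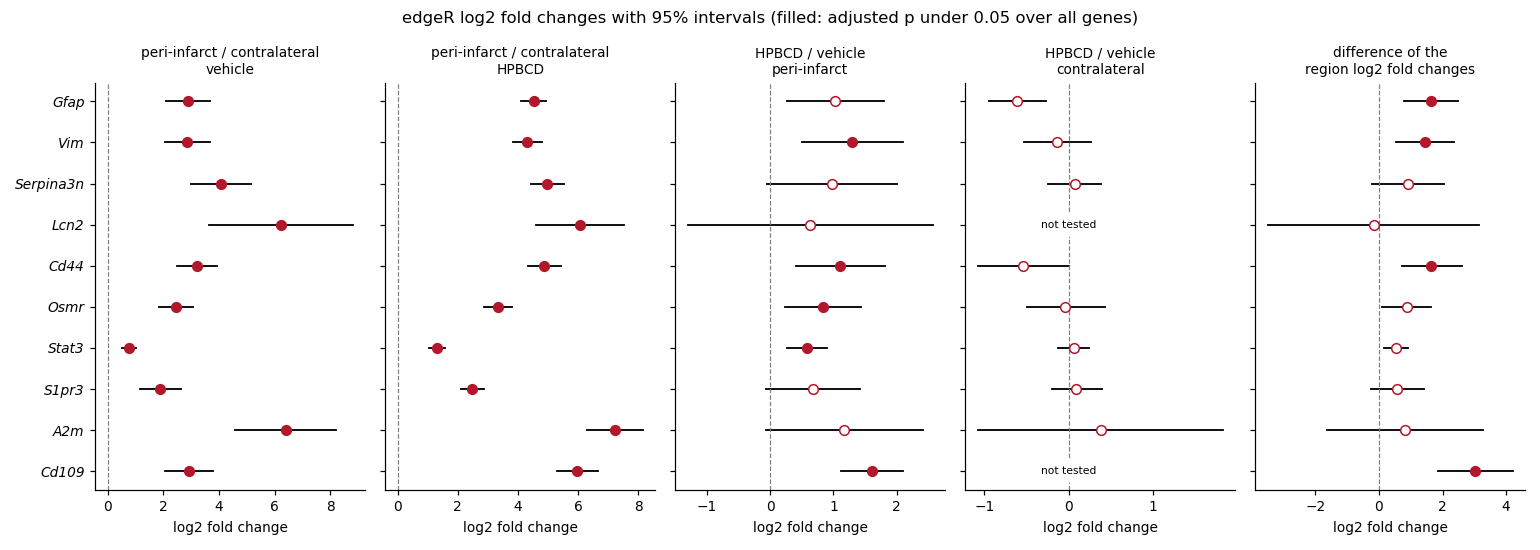
Log2 fold changes of the 10 genes in edgeR with 95% intervals, in 5 panels for the comparisons, filled where the adjusted p over all genes is under 0.05. The region panels are filled for all 10 genes, the HPBCD against vehicle panel of peri-infarct tissue for 5, the contralateral panel for none, and the last panel for Gfap, Vim, Cd44 and Cd109.

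In contralateral tissue no member passed the threshold between HPBCD and vehicle. Lcn2 and Cd109 were too low for the filter, and of 15469 genes edgeR called 0.0% higher and none lower, with 1224 genes at an unadjusted p under 0.05, while DESeq2 called 51 and limma voom 0. Among the 8 members tested, Gfap had the lowest log2 fold change, with 148 ± 21.4 CPM with HPBCD and 225 ± 56.2 CPM with vehicle (log2 -0.61, interval -0.95 to -0.27, unadjusted p = 0.00203, adjusted p = 0.443). DESeq2 called Gfap lower there, at an adjusted p of 0.0444, and the adjusted p of the other settings and leave-one-out fits reached 0.798. Cd44 had 1.8 ± 0.51 and 2.6 ± 0.691 CPM (log2 -0.54, unadjusted p = 0.0482, adjusted p = 0.625). The other 6 members tested had log2 fold changes of -0.14 to 0.38, with adjusted p-values of 0.885 to 0.979. Cd109 had 0.378 ± 0.25 CPM with HPBCD and 1.01 ± 0.735 CPM with vehicle, with overlapping libraries and no test. Without HPBCD contralateral replicate 4 no gene was called either.

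Whether the difference between regions was itself different between treatments was tested as an interaction over all 20 libraries. It was larger with HPBCD for 4 of 10 members, against 5.03% of 16758 genes. Cd109 had the largest value, a log2 difference of 3.03 (SE 0.57, adjusted p = 0.0139). Cd44 followed with 1.65 (SE 0.45, adjusted p = 0.0313), Gfap with 1.64 (SE 0.41, adjusted p = 0.0234) and Vim with 1.44 (SE 0.44, adjusted p = 0.044). The contralateral libraries entered these values: for Gfap, 1.03 of the difference lay in peri-infarct tissue and -0.61 in contralateral tissue. For Cd109, 1.61 lay in peri-infarct tissue, and the rest came from contralateral levels of 2 to 38 counts, which were too low for a test of their own. Stat3 (0.52, adjusted p = 0.0681), Osmr (0.87, adjusted p = 0.126), Serpina3n (0.91, adjusted p = 0.271), S1pr3 (0.58, adjusted p = 0.339), A2m (0.81, adjusted p = 0.682) and Lcn2 (-0.17, adjusted p = 0.954) did not pass.

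Gfap and Cd109 kept the interaction call without each of the 20 libraries. Without HPBCD contralateral replicate 4, the library that stood apart, these 2 were the members called, and all 10 were still called between regions in HPBCD. Cd44 lost its call without 6 libraries (vehicle peri-infarct replicate 1, HPBCD peri-infarct replicates 3 and 4, and HPBCD contralateral replicates 1, 4 and 5). Vim lost it without 14 of the 20. With the replicate block, which pairs the regions of an animal, Vim lost its call (adjusted p = 0.0584) and Stat3 was called (adjusted p = 0.0455). The number of members called ranged from 2 to 6.

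Stat3 and Osmr act in the gp130 pathway, of which 29 further genes were listed (receptors, kinases, cytokines, inhibitors and targets). Between regions in vehicle 11 of 25 tested rose and 0 fell, against 10.5% of all genes called higher and 9.7% lower. In HPBCD 20 of 26 rose and 3 fell, against 30.3% and 24.3% of all genes. The medians were 0.29 and 0.99 on the log2 scale, against 0.01 and 0.03 for all genes. In vehicle the cytokine genes Clcf1 (log2 1.85, adjusted p = 0.00275) and Lif (1.31, adjusted p = 0.00521) and the target Bcl3 (2.57, adjusted p = 0.0049) rose. In HPBCD Socs3, an inhibitor of the pathway that STAT3 itself induces, rose by 1.98 (adjusted p = 1.37e-06), and the transcription factor Cebpd by 2.78 (adjusted p = 2.45e-06), while Jak1 gave 0.04 (adjusted p = 0.828). Between HPBCD and vehicle beside the infarct 8 of 26 rose and 1 fell (median 0.37), against 12.4% of all genes called higher and 9.0% lower. Il6st, which encodes gp130, rose there from 108 ± 26.6 to 203 ± 43.9 CPM (log2 0.90, adjusted p = 0.015), and the cytokine gene Ctf1 by 1.09 (adjusted p = 0.0136). In contralateral tissue 0 of 23 were called. The interaction was more positive for 3 of 26, against 5.03% of all genes: Il6st (0.82, adjusted p = 0.0324), Il11ra1 (0.73, adjusted p = 0.0417) and Ctf1 (1.25, adjusted p = 0.0469).

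Other genes listed for reactive astrocytes were called in 1 direction only, higher beside the infarct. Of all genes, 10.5% were called higher between regions in vehicle and 30.3% in HPBCD. Between HPBCD and vehicle beside the infarct the share was 12.4%. Of 9 further genes raised in reactive astrocytes of several kinds, 5 of 8 rose in vehicle and 9 of 9 in HPBCD, among them the phospholipase gene Plce1 (log2 1.77 and 2.96, adjusted p = 0.00115 and 4.62e-07). Of genes listed for the A1 state, named from inflammation, 5 of 12 rose in vehicle and 12 of 12 in HPBCD, among them complement C3 (6.83 and 8.14, adjusted p = 0.00174 and 8.75e-07). Of those listed for the A2 state, named from ischemia, 6 of 10 and 9 of 10 rose, among them the transglutaminase gene Tgm1 (5.21 and 6.85, adjusted p = 0.00275 and 3.8e-07). In vehicle the genes of largest p in these lists were Nes (-0.03, adjusted p = 0.924), Fbln5 (0.26, adjusted p = 0.58) and Sphk1 (0.01, adjusted p = 0.988). Between HPBCD and vehicle beside the infarct 7 of 9, 6 of 12 and 4 of 10 rose. Examples are ceruloplasmin, Cp (1.54, adjusted p = 0.0164), the complement inhibitor Serping1 (1.98, adjusted p = 0.0192) and Emp1 (1.61, adjusted p = 0.0133). The genes of largest p there were Cxcl10 (0.65, adjusted p = 0.463), Amigo2 (0.34, adjusted p = 0.54) and Ptgs2 (-0.26, adjusted p = 0.469). In contralateral tissue none of the 7, 11 and 7 genes tested passed. The interaction was more positive for 3 of 9, 1 of 12 and 3 of 10, against 5.03% of all genes. The count of 1 of 12 lies near that share.

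Ligands, receptors and partners of the members were counted as well. Of 35 tested, 9 rose between regions in vehicle and 21 in HPBCD, none fell, and 9 of 36 rose between HPBCD and vehicle beside the infarct, against 10.5%, 30.3% and 12.4% of all genes. For Cd44, the ligand gene Spp1, which encodes osteopontin, rose by 3.03 between regions in vehicle (adjusted p = 0.00975) and by 4.11 in HPBCD (adjusted p = 1.72e-06), while the hyaluronan synthase Has3 gave -0.01 and 0.06 (adjusted p = 0.988 and 0.872). For S1pr3, the lyase Sgpl1 that degrades sphingosine 1-phosphate rose by 0.83 and 1.64 (adjusted p = 0.0133 and 1.85e-06). The kinase Sphk1 that makes it gave 0.01 in vehicle (adjusted p = 0.988), rose by 1.61 in HPBCD (adjusted p = 0.000374), and rose between HPBCD and vehicle beside the infarct by 1.76 (adjusted p = 0.0235). For Cd109, the TGF-beta receptor genes Tgfbr1 and Tgfbr2 rose in vehicle by 1.16 and 1.08 (adjusted p = 0.00365 and 0.0113) and in HPBCD by 1.70 and 1.87 (adjusted p = 2.59e-06 and 2.28e-06). For A2m, the receptor gene Lrp1 rose by 0.22 in vehicle (adjusted p = 0.0459) and by 0.46 in HPBCD (adjusted p = 0.00286). For Lcn2, the receptor gene Lrp2 rose in vehicle from 0.181 ± 0.237 to 1.25 ± 0.58 CPM (log2 2.78, adjusted p = 0.0136). With HPBCD Lrp2 was called higher beside the infarct, at 3.98 ± 1.19 CPM against 0 counts in all 5 contralateral libraries (adjusted p = 3.97e-06). Between HPBCD and vehicle beside the infarct Lrp2 rose by 1.65 (adjusted p = 0.0153). The other two genes listed for LCN2 did not pass between regions, with 0.02 and -0.21 for Slc22a17 (adjusted p = 0.902 and 0.157) and 0.74 and 1.04 for Mc4r (adjusted p = 0.354 and 0.104). Of 6 genes listed as proteases and serpin targets, 3 were tested between regions. The protease gene Plat rose by 0.59 and 1.68 (adjusted p = 0.0171 and 2.92e-06), and Mmp9 gave -0.21 and -0.55 (adjusted p = 0.749 and 0.205). Elane, Ctsg and Gzmb, with group means of at most 0.364 CPM, were too low to test.

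Markers of other cell types were counted in the same comparisons, in which 10.5%, 30.3% and 12.4% of all genes were called higher and 9.7%, 24.3% and 9.0% lower (between regions in vehicle and in HPBCD, and between HPBCD and vehicle beside the infarct). Of 10 microglia and macrophage markers, 8 rose between regions in vehicle and 10 in HPBCD, and 2 of 10 rose between HPBCD and vehicle beside the infarct, where their sum was 606 to 1065 CPM with HPBCD and 368 to 913 CPM with vehicle. Of 10 fibroblast and meningeal markers, 2 and 10 rose between regions, and 9 of 10 rose with HPBCD beside the infarct, with sums of 126 to 467 CPM with vehicle and 511 to 1404 CPM with HPBCD. Of 7 ependymal markers, 3 of 6 tested and 7 of 7 rose between regions and 5 of 7 with HPBCD beside the infarct, from 26.7 to 63 CPM to 95.2 to 188 CPM. Ccdc153 and Tmem212 had 3 counts or fewer in every HPBCD contralateral library, so they passed the filter there through the peri-infarct libraries. Of 10 neuronal markers 4 and 9 fell between regions, and 6 fell with HPBCD beside the infarct, from 6660 to 8871 CPM to 3422 to 6705 CPM. Of 10 neutrophil markers none was high enough to test between regions in vehicle, 2 of 2 tested rose in HPBCD, and S100a9 rose with HPBCD beside the infarct (log2 2.52, adjusted p = 0.0475) while S100a8 gave 2.65 (adjusted p = 0.0638). With HPBCD, S100a8 and S100a9 had means of 1.88 and 4.79 CPM beside the infarct and 0.36 and 0.59 CPM opposite. Their passing the filter rested largely on the HPBCD peri-infarct libraries, so the count of 2 of 2 follows partly from the filter. Of 8 mural markers, 1 and 4 rose between regions and 4 with HPBCD beside the infarct. Of 8 endothelial markers, none was called between regions in vehicle, 1 rose and 2 fell in HPBCD, and 1 rose with HPBCD beside the infarct. Of 7 T lymphocyte markers, 0 of 1 tested rose between regions in vehicle and 5 of 5 in HPBCD, and 0 of 6 rose with HPBCD beside the infarct. Cd3d, Cd3e, Cd3g and Cd2 had 3 counts or fewer in every HPBCD contralateral library. Genes so low there could pass the filter only through the peri-infarct libraries, so the count of 5 of 5 follows partly from the filter. Oligodendrocyte markers rose between regions in 0 of 8 and 8 of 8, and 2 of 8 rose with HPBCD beside the infarct. The contralateral sums of neurons, at 9821 to 11858 CPM with vehicle and 11880 to 12674 CPM with HPBCD, did not overlap, although 0 of 10 genes passed. Those of oligodendrocytes were 4670 to 12068 CPM with vehicle and 5759 to 7241 CPM with HPBCD, with 0 of 8 genes called. The contralateral sums of ependyma were 8.32 to 47.6 CPM with vehicle and 9.97 to 15.2 CPM with HPBCD, with 0 of 4 tested called. Of the 12 astrocyte markers of all states, 5 rose between regions in vehicle, 7 rose and 1 fell in HPBCD, and 4 rose with HPBCD beside the infarct, and their sum was 8244 to 10473 CPM against 7509 to 10787 CPM. The part of these cell types in the members' values was not tested.

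**Figure D5:**
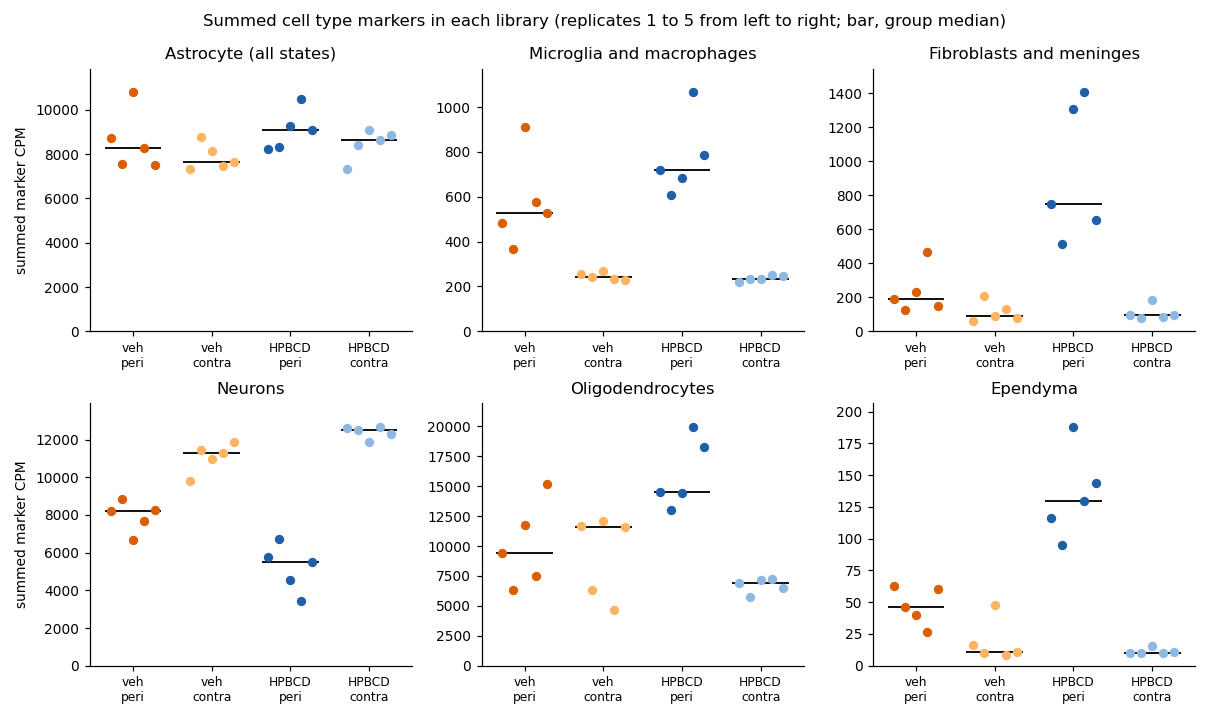
Summed CPM (linear axes from 0) of the markers of 6 cell types in each of the 20 libraries, with a bar for the group median. The astrocyte sums of the 4 groups overlap, with medians of 8257, 7634, 9096 and 8632 CPM, while the fibroblast and ependyma sums of the HPBCD peri-infarct libraries lie above those of all other groups.

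The libraries of a group were ordered alike across the members. Vehicle peri-infarct replicate 2 was the lowest of its group for 10 of 10 genes and replicate 3 the highest for 10 of 10. The summed CPM of the members was 789.6 in replicate 2 and 3892 in replicate 3. HPBCD peri-infarct replicate 4 was the highest of its group for 8 of 10 genes, with a sum of 6870 CPM, and replicate 2 the lowest for 8 of 10, with 3375 CPM. No contralateral library was the highest of its group for more than 5 genes. The same libraries stood at the ends for microglia and neuron markers. In vehicle peri-infarct tissue replicate 2 had the lowest microglia sum (368 CPM) and the highest neuron sum (8871 CPM), and replicate 3 the highest microglia sum (913 CPM) and the lowest neuron sum (6660 CPM). In HPBCD peri-infarct tissue replicate 4 had 1065 CPM of microglia and 3422 CPM of neuron markers, the highest and the lowest of its group, and replicate 2 had 606 and 6705 CPM, the lowest and the highest. How far the dissected tissue differed between these animals was not tested.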

How the data were processed

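Polyadenylated RNA was measured in 20 libraries, 5 per group, with stranded mRNA kits and paired reads. Per the submitters' processing notes and methods, the authors used bcl2fastq 2.19, Trimmomatic 0.32, STAR 2.5.2b on GRCm38 and htseq-count. The deposited values are raw counts per Ensembl gene. Which annotation release was counted, and with which strand setting, is not given in the sources used here. The 5 lines of each table that name no gene were left out. Symbols, positions and exon lengths came from GENCODE M21 of GRCm38, which matched 45229 of 46078 genes (98.16%), holding 99.933% of counts. Group and replicate came from the sample titles.

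Counts were tested with the quasi-likelihood test of edgeR 4.0.16 (R 4.3.3), with TMM factors, the filterByExpr filter and Benjamini-Hochberg adjustment over all genes tested, at a threshold of 0.05. Comparisons of 2 groups used their 10 libraries, and the interaction used 20. The SE was the size of the log2 fold change divided by the square root of F, with 95% intervals from the t distribution at the degrees of freedom of the test. CPM values were TMM-scaled over the 20 libraries, and CPM per kilobase used the union of exons. Floors cover counting error alone. The fits were checked on simulated counts first. No 2 tables were identical.

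Within a treatment, the peri-infarct and contralateral libraries of equal replicate number carry 1 animal number in their deposited names (10 of 10 pairs), so the numbers pair the regions. Their deviations from the group means correlated with a mean r of 0.088 (-0.11 to 0.301), over 0.1 in 4 of 10 pairs. Between treatments the number is a name only. Alternatives were DESeq2 1.42.0, limma 3.58.1 voom with quality weights, RLE and upper quartile factors, dropping the low-count filter, a minimum of 10 counts per library, blocking on the replicate number, a single fit of the 4 groups, and leaving out each library. The members and the other lists were chosen with earlier results of these data known. The 10 members were named in every comparison. Of the other lists, counts were given with up to 3 genes of smallest p and the gene of largest p per list and comparison. Promoters came from RefSeq.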

Additional observations from a re-analysis of the deposited data

Results flagged for a closer look

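In 4 of the 40 groups of 5 libraries (10 genes in 4 groups), the highest or lowest library lay further from its neighbour than Dixon's 95% limit of 0.71 of the group's range, which chance passes in about 5% of groups. HPBCD peri-infarct replicate 4 was the far library for Cd44 (its gap was 0.732 of the range), Osmr (0.794) and S1pr3 (0.809), and these 3 are not independent, since they come from 1 library. Vehicle peri-infarct replicate 2 was the far library for Cd109 (0.72), on the low side. Without HPBCD peri-infarct replicate 4, Cd44 and Osmr lost their calls between HPBCD and vehicle. Without vehicle peri-infarct replicate 2, Cd109 kept its call.

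The difference between regions was larger with HPBCD than with vehicle, by an interaction term in edgeR, for Cd109 (3.03 on the log2 scale, adjusted p = 0.0139), Cd44 (1.65, adjusted p = 0.0313), Gfap (1.64, adjusted p = 0.0234) and Vim (1.44, adjusted p = 0.044). The ratio of the regions was higher in each HPBCD animal than in each vehicle animal for Gfap, Vim and Cd44. It was so for Cd109 too, but 2 of its 5 HPBCD ratios rest on 2 and 3 contralateral counts. The share of all genes with such a separation of the animals was not counted.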

How the results depend on the processing

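Between regions, the direction and the call of all 10 genes held under the other settings and without each library, except Lcn2 in vehicle with limma voom (adjusted p = 0.0867), and except that a minimum of 10 counts in every library left 7 genes to test. The count of genes called in vehicle was 3195, with limma voom 5065, and 2000 to 3920 without 1 library. In HPBCD it was 8764, and 8043 to 9382 without 1 library. The replicate block, which pairs the animals here, gave 3053 and 8860 genes and changed no call of the 10. Between HPBCD and vehicle beside the infarct, 3471 genes and 5 members were called. Limma voom gave 6012 and 8, and leaving out 1 library 823 to 5339 and 1 to 7. A block on the number, which is only a name there, gave 4375 and 9. In contralateral tissue 0 genes were called, 51 with DESeq2 (1 member), 2 with no filter and 1 with the block. Serpina3n (0.07) changed sign with limma voom (-0.05) and without 1 library (-0.04 to 0.16), and Osmr (-0.04) without 1 library (-0.15 to 0.08). For the interaction, 1577 genes and 4 members were called, with DESeq2 2514 genes and 5 members, with limma voom 4110, with the block 1830 and 4, and without 1 library 529 to 3121 and 2 to 6. Stat3 gained the call with DESeq2 (adjusted p = 0.0412), limma voom (0.0256) and the block (0.0455), while Cd44 lost it with limma voom (0.0631) and Vim with the block (0.0584). Lcn2 (-0.17) changed sign with limma voom (0.21) and in 7 of 20 leave-one-out fits (range of the 20: -1.04 to 0.38). The causes were not tested. Depth limits Lcn2, A2m and Cd109 in contralateral tissue, at 1 to 38 counts per library.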
